A study of Sus scrofa with 92 samples.

Results

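The genes described here are 7 glucocorticoid target and receptor genes, FKBP5, TSC22D3, SGK1, NR3C1, TAT, ZBTB16 and HSD11B1. They were chosen by symbol among the 25322 pig Ensembl identifiers of the deposited count table. No rule on their values was used, but earlier results of these data were known. Each symbol belonged to 1 identifier: FKBP5 to ENSSSCG00000001549, TSC22D3 to ENSSSCG00000030241, SGK1 to ENSSSCG00000021443, NR3C1 to ENSSSCG00000014401, TAT to ENSSSCG00000002736, ZBTB16 to ENSSSCG00000030095 and HSD11B1 to ENSSSCG00000015616. The symbol of TSC22D3 came from the study's tables and the other symbols came from a gene name table. Of these genes, 6 had enough counts to be tested, and HSD11B1 had none.

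The libraries were made from liver biopsies of 23 male Yorkshire-Landrace pigs that were fasted overnight, anesthetized, instrumented and splenectomized. All animals then received a captive bolt chest injury, hemorrhage and a liver crush injury, followed by resuscitation. The fasted group (FS) had 18 animals, of which 3 died. The carbohydrate prefed group (CPF) had 5 animals, of which 2 died, and received a bolus of diluted Karo syrup before induction. Biopsies from the edge of the liver were taken at Baseline (B), after instrumentation and before injury, and at 2, 8 and 20 hours of full resuscitation (FR2, FR8, FR20). These libraries include no uninjured animals at the later timepoints, so injury, resuscitation, anesthesia and time of day cannot be told apart in any change from Baseline. Each comparison is named by its timepoints, as in FR8vB for FR8 against B.

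Glucocorticoids such as cortisol enter cells and bind the glucocorticoid receptor, which is held ready by heat shock protein chaperones, moves to the nucleus and turns genes on or off. In the liver the hormone promotes the breakdown of amino acids and the making of glucose during fasting and stress. Several of its targets feed back on the response, FKBP5 by making the receptor bind hormone less tightly and TSC22D3 (also called GILZ) by restraining inflammatory transcription factors.

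Of 92 libraries 88 were used, 3 FS Baseline libraries (animals 17, 19 and 21) without albumin and 1 CPF FR8 library (animal 3) with 4388 counts being left out. The kept libraries held 6877117 to 16613261 counts each, with a median of 12071957. Values are CPM (counts scaled to a common library total) after TMM scaling, and levels are not compared between genes, since gene lengths were not used. Albumin (ALB) was at 9521 CPM or more in every kept library, and skeletal actin (ACTA1) reached at most 68.4 CPM, against 18973 to 27283 CPM in the 3 Baseline libraries left out. In bulk tissue fewer cells of a type and less RNA per cell cannot be told apart.

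Some kept libraries went against their labels or held unusable values. Profiles were compared over the 500 genes that differed most between timepoint medians, with the glucocorticoid genes left out. Of the 88 libraries, 18 from 9 animals were nearer to the median profile of another timepoint than to that of their own label. The margin in correlation was above 0.05 for 14 of them (animals 9, 10, 13, 17, 19 and 21). In animals 17, 19 and 21 the library labelled FR2 was nearest to FR8, the library labelled FR8 to B and the library labelled FR20 to FR2. In CPF animal 13 the library labelled FR20 was nearest to B. Labels were kept throughout. In FS animal 11 the FR2 and FR8 libraries had 660 and 657 of 6736 abundant identifiers at exactly 0, against at most 1 in any other library, TSC22D3 among them. ZBTB16, too low to count as abundant, was also at 0 in both. Counts of calls and the main changes are therefore also given without the 6 animals and the 2 libraries. Since these animals were chosen for profiles unlike their group, results without them follow in part from that choice. Smaller errors, larger changes, added calls and clearer separations of timepoints without them are thus no independent support.

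A gene was called when the Benjamini-Hochberg adjusted p of edgeR's quasi-likelihood test was under 0.05 and the absolute log2 fold change at least 1. In FS animals 3 of the 6 tested genes were called at FR2vB, where 11% of 13667 genes were called: FKBP5 rose, and TSC22D3 and TAT fell. At FR8vB 3 of 6 fell (TSC22D3, SGK1 and TAT; 11.8% of all genes were called), and at FR20vB the same 3 fell (9.94%). At FR8vFR2 2 of 6 fell, FKBP5 and ZBTB16 (5.96%). Without the 6 animals and 2 libraries the FS counts were 4 at FR2vB, 4 at FR8vB, 5 at FR20vB and 5 at FR8vFR2, and the share of all genes called was 15.5%, 20.0%, 13.4% and 16.1%.

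In CPF animals 1 of 6 was called at FR8vB, TSC22D3 (8.83% of all genes), and 1 of 6 at FR8vFR2, FKBP5 (4.92%), both lower. The quasi-likelihood test called 0 of 6 at FR2vB (2.41% of all genes), where 0 had an unadjusted p under 0.05 and DESeq2's Wald test and edgeR's likelihood ratio test also called 0. It called 0 at FR20vB (0.702%), where 2 had an unadjusted p under 0.05 and both other tests called 0. At FR20vFR8 it called 0 in FS animals (1.46%; 1 at an unadjusted p under 0.05, 0 with each other test) and 0 in CPF animals (0.022%; 1 at an unadjusted p under 0.05, 1 with DESeq2 and 0 with the likelihood ratio test). Without the 6 animals and 2 libraries the CPF counts were 1 at FR2vB, 2 at FR8vB, 3 at FR20vB and 2 at FR8vFR2, and the share of all genes called was 4.42%, 13%, 8.59% and 9.76%.

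**Figure D1:**
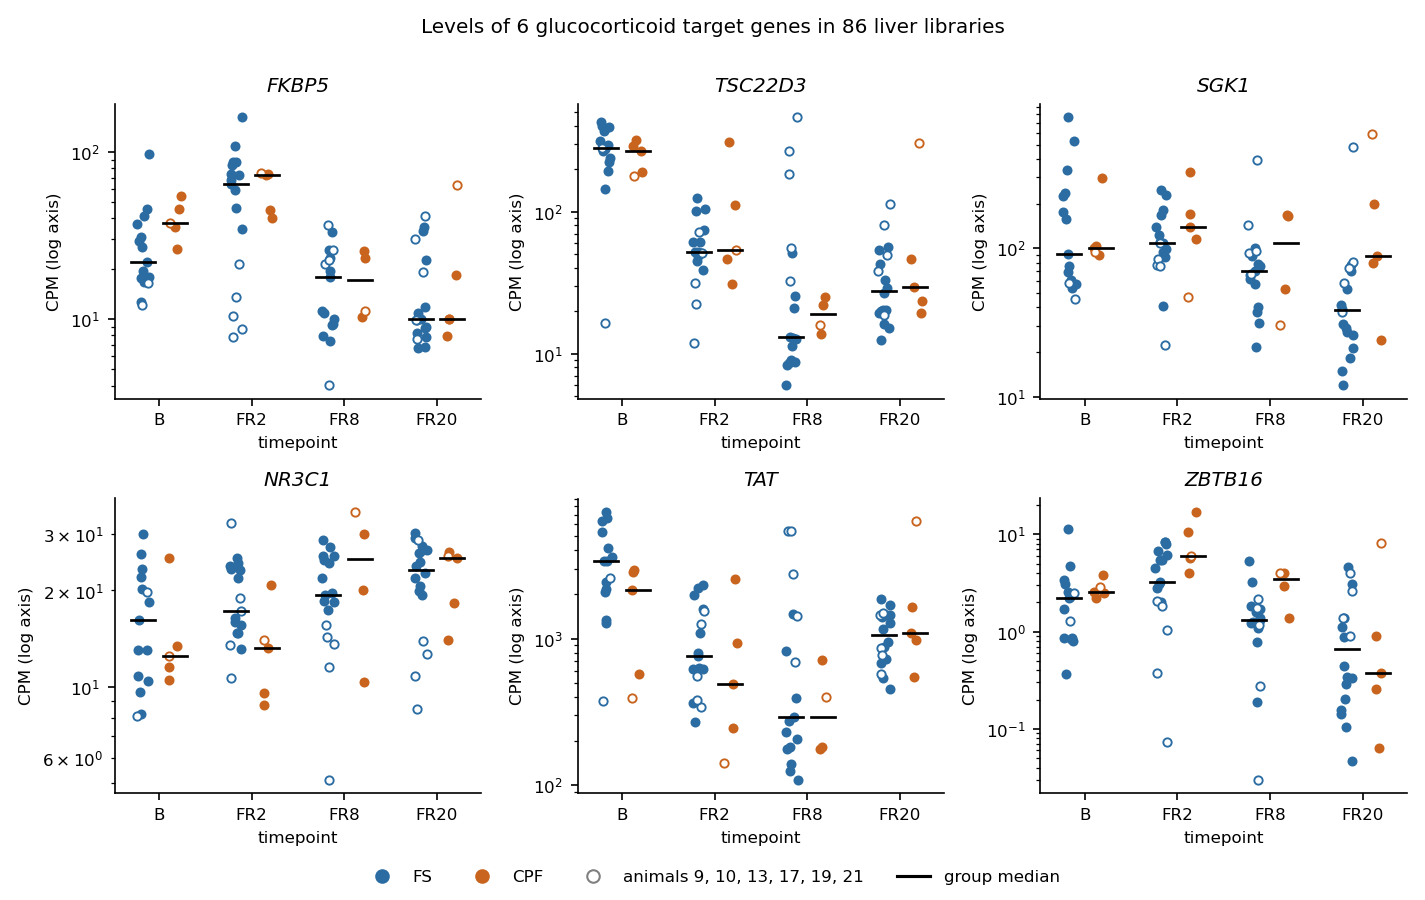
CPM after TMM scaling (log axes) of the 6 tested genes in 86 libraries by labelled timepoint, with FS animals in blue, CPF animals in orange, the group median as a black bar and animals 9, 10, 13, 17, 19 and 21 as open circles. The 2 libraries of animal 11 with a block of zeros are left out, and a ZBTB16 value of 0 (animal 9 at FR8) is drawn at 0.03; FS medians of TSC22D3 and TAT are highest at B, and those of FKBP5 and ZBTB16 at FR2.

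NR3C1 encodes the glucocorticoid receptor itself. Its transcript was at a median of 16.1 CPM in FS animals at B (lowest 8.08, highest 30.1, n = 15). It was at 16.8 CPM at FR2 (8.85 to 32.6, n = 18), 19.2 CPM at FR8 (5.11 to 28.8, n = 18) and 23.3 CPM at FR20 (8.51 to 30.3, n = 18). The groups overlapped at every timepoint. The log2 fold change was 0.33 ± 0.15 (SE) at FR2vB (adjusted p = 0.0726), 0.38 ± 0.15 at FR8vB (adjusted p = 0.0346) and 0.54 ± 0.15 at FR20vB (adjusted p = 0.00336). By the adjusted p alone, which 41.4%, 39.3% and 33.8% of all genes passed at these 3 comparisons, the receptor was higher at FR8 and FR20, but both changes were under 2-fold and it was not called. It was higher at FR20 than at B in 14 of 15 FS animals. Leaving out the 6 animals and 2 libraries, the values at FR8vB and FR20vB were 0.43 ± 0.15 and 0.60 ± 0.14.

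In CPF animals 3, 7, 8, 13 and 18 the receptor transcript was at 11.5, 13.4, 25.2, 12.5 and 10.5 CPM at B and at 25.3, 13.98, 18.3, 25.7 and 26.4 CPM at FR20. Animals 3, 13 and 18 were at FR20 above all CPF Baseline values. Animal 7 differed little between these timepoints, and animal 8 was lower at FR20 than at B. The CPF change at FR20vB was 0.61 ± 0.27 (adjusted p = 0.244).

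HSD11B1 encodes the enzyme that regenerates active cortisol from cortisone inside liver cells. It is listed at 0 counts in all 92 libraries, as are 6966 of the 25322 identifiers. A count of 0 allows up to 3 counts per library, which is 0.436 CPM in the smallest kept library and 0.181 CPM in the largest and covers counting error only. No level and no fold change are therefore given, and why the identifier holds no counts was not tested.

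FKBP5, the receptor cochaperone that lowers hormone binding and is itself induced by the hormone, moved up and then down. In FS animals it was at a median of 21.98 CPM at B (lowest 12.2, highest 96.8, n = 15). At FR2 it was at 62.0 CPM (7.81 to 161, n = 18), the highest of the 4 FS medians. At FR8 it was at 14.6 CPM (4.02 to 36.5, n = 18) and at FR20 at 9.95 CPM (6.72 to 41.1, n = 18). The lowest FR2 values belonged to animals 10, 21, 19 and 17, at 7.81, 8.73, 10.4 and 13.6 CPM. The rise at FR2vB was 1.02 ± 0.32 on the log2 scale (2.02-fold, adjusted p = 0.00776, up in 12 of 15 animals). It lay at the 2-fold limit: with CPF animal 8 or animal 18 left out the fit gave 0.99 for both and no call. The fall from FR2 to FR8 was -1.79 ± 0.32 (adjusted p = 4.43e-05, down in 14 of 18 animals). At FR8vB and FR20vB the values were -0.77 ± 0.32 (adjusted p = 0.0496) and -0.89 ± 0.33 (adjusted p = 0.0287), both under 2-fold. FR20vFR8 gave -0.12 ± 0.30 (adjusted p = 0.88), a difference smaller than its error.

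Without the 6 animals and 2 libraries FKBP5 was at 34.6 to 161 CPM at FR2 (median 73.5, n = 12) and 7.36 to 32.9 CPM at FR8 (median 11.05, n = 12). These ranges did not overlap, which the choice of libraries by timepoint profile favors. The rise at FR2vB was then 1.44 ± 0.25 (adjusted p = 2.98e-06), and FKBP5 passed both thresholds below Baseline at FR8vB (-1.02 ± 0.25) and FR20vB (-1.14 ± 0.24).

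In CPF animals 3, 7, 8, 13 and 18 FKBP5 was at 26.1, 45.5, 54.7, 37.6 and 35.7 CPM at B and 40.0, 72.6, 74.0, 75.0 and 44.7 CPM at FR2, higher in 5 of 5 animals. It was at 23.3, 25.5, 11.1 and 10.3 CPM at FR8 in animals 7, 8, 13 and 18, lower than at FR2 in 4 of 4. At FR20 it was at 9.98, 18.3, 9.96, 63.2 and 7.90 CPM, with animal 13 apart from the others. The CPF change was 0.57 ± 0.55 at FR2vB (adjusted p = 0.592) and -1.93 ± 0.63 at FR8vFR2 (adjusted p = 0.0468). The latter call of FKBP5 was lost when any 1 of the 5 CPF animals was left out, with adjusted p from 0.0655 to 0.152.

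TSC22D3, the anti-inflammatory leucine zipper protein GILZ, had the largest falls of the 6 genes in the 3 FS changes from Baseline. In FS animals it was at a median of 281 CPM at B (lowest 16.6 in animal 10, highest 426, n = 15). It was at 51.6 CPM at FR2 (0 to 125, n = 18), 12.9 CPM at FR8 (0 to 462, n = 18) and 27.7 CPM at FR20 (12.4 to 114, n = 18). Both zeros are those of animal 11. The libraries labelled FR8 of animals 17, 19 and 21 stood at 267, 183 and 462 CPM, in the range of Baseline for animals 17 and 19 and above it for animal 21, while the other FR8 libraries stood at 55.6 CPM or less. The log2 fold change was -2.48 ± 0.46 at FR2vB (5.59-fold lower, adjusted p = 1.97e-05), -3.59 ± 0.54 at FR8vB (12.01-fold lower, adjusted p = 1.08e-06) and -3.48 ± 0.48 at FR20vB (11.2-fold lower, adjusted p = 7.86e-08). TSC22D3 was lower than at B in 14 of 15 animals in each of these comparisons. At FR2vB and FR8vB the 14 include animal 11, whose zeros belong to its block of unusable values. These zeros also enter the log2 fold changes given here. Animal 10, whose library labelled B was nearest to FR8 in profile, was the exception at all 3 timepoints.

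Without the 6 animals and 2 libraries TSC22D3 in FS animals was at 144 to 426 CPM at B (n = 13), 38.5 to 125 CPM at FR2 (n = 12), 5.99 to 51.0 CPM at FR8 (n = 12) and 12.4 to 56.5 CPM at FR20 (n = 13). No later library among these reached the Baseline range, but leaving out libraries by their timepoint profile favors such a separation. The changes from Baseline were -2.11 ± 0.24, -4.37 ± 0.27 and -3.51 ± 0.24. The step from FR2 to FR8, -1.10 ± 0.49 with all kept libraries (adjusted p = 0.0824), was -2.26 ± 0.25 without them (adjusted p = 1.23e-10).

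In CPF animals 3, 7, 8, 13 and 18 TSC22D3 was at 190.3, 291, 266, 179 and 319.9 CPM at B. At FR2 it was at 46.8, 111, 309.7, 54.1 and 30.7 CPM, lower than at B in 4 of 5, animal 8 being the exception. At FR8 it was at 24.9, 21.99, 15.8 and 13.8 CPM in animals 7, 8, 13 and 18, all below every Baseline value. At FR20 it was at 19.2, 46.6, 23.4, 307 and 29.5 CPM, and animal 13, whose library labelled FR20 was nearest to B in profile, stood apart. The change was -1.53 ± 0.85 at FR2vB (adjusted p = 0.308), -4.08 ± 1.01 at FR8vB (adjusted p = 0.00668) and -2.15 ± 0.92 at FR20vB (adjusted p = 0.227). For TSC22D3 the FR8vB call was lost without animal 18 (-3.92, adjusted p = 0.0526), and FR20vB became a call without animal 13 (-3.22, adjusted p = 0.0415).

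**Figure D2:**
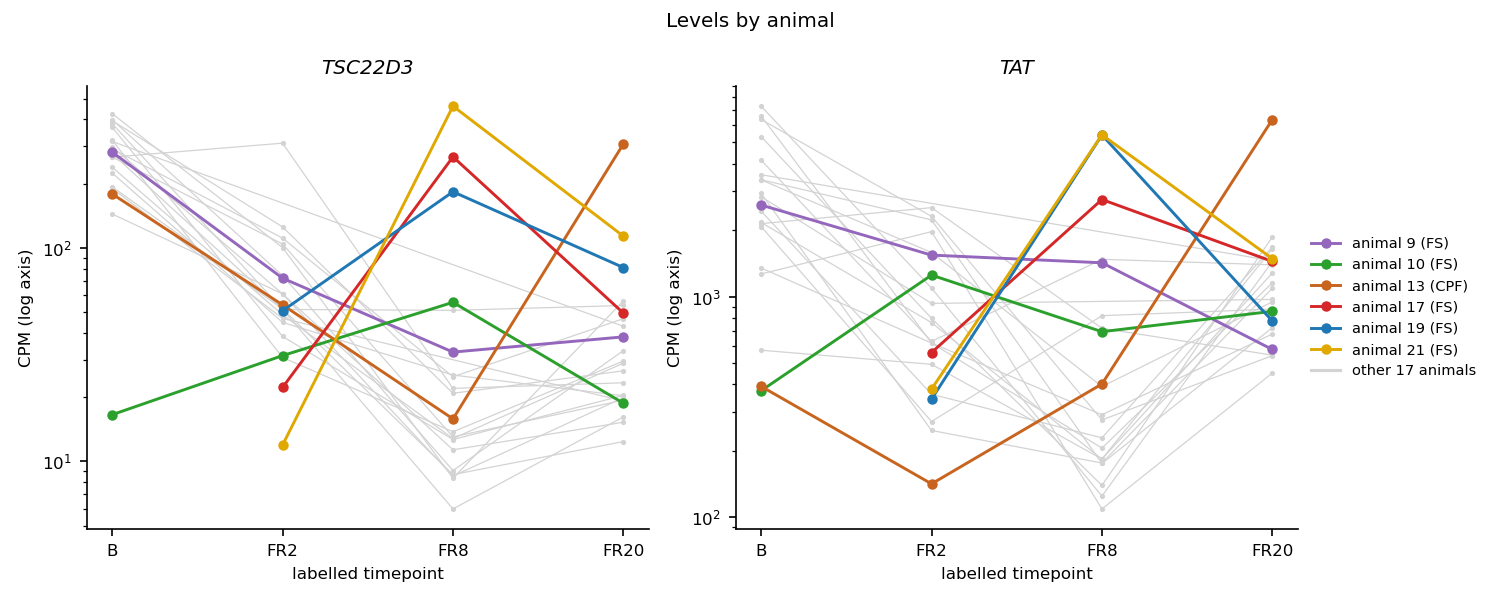
CPM after TMM scaling (log axes) of TSC22D3 and TAT in each animal by labelled timepoint, with 6 animals in color and the other 17 in grey; a line skips timepoints with no usable library. The libraries labelled FR8 of animals 17, 19 and 21 and the library labelled FR20 of animal 13 lie in or just above the range of Baseline levels.

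SGK1, a kinase that raises sodium and nutrient transport and responds to glucocorticoids, mineralocorticoids and cell stress, fell later. In FS animals it was at a median of 91.6 CPM at B with a wide range (45.6 to 762, n = 15). It was at 109 CPM at FR2 (22.2 to 368, n = 18), 73.3 CPM at FR8 (21.8 to 392, n = 18) and 38.1 CPM at FR20 (11.96 to 484, n = 18). The 2 highest Baseline values, 762 and 525 CPM, were those of animals 2 and 16, which died, and the highest value at FR20 was that of animal 17. FR2vB gave -0.46 ± 0.40 (adjusted p = 0.372, 7 animals up and 8 down), smaller than the spread between animals. SGK1 fell by 1.21 ± 0.41 at FR8vB (adjusted p = 0.0151, down in 10 of 15 animals) and by 1.99 ± 0.42 at FR20vB (adjusted p = 1.79e-04, down in 14 of 15). With the 6 animals and 2 libraries left out the values were -1.67 ± 0.36 and -2.43 ± 0.36, and FR8vFR2 passed as well (-1.26 ± 0.35, adjusted p = 0.00206).

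In CPF animals 3, 7, 8, 13 and 18 SGK1 was at 101, 103, 90.0, 93.8 and 299 CPM at B and at 139, 171, 328, 46.8 and 115 CPM at FR2. It was at 164, 167, 30.3 and 53.4 CPM at FR8 in animals 7, 8, 13 and 18 and at 24.2, 198, 88.6, 588 and 79.6 CPM at FR20. The animals moved in different directions: at FR20 2 of 5 were above their own Baseline and 3 below. The CPF change at FR20vB was 0.25 ± 0.78 (adjusted p = 0.912), and -0.88 ± 0.62 (adjusted p = 0.363) without animal 13 and the other libraries in doubt.

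ZBTB16 (PLZF), a zinc finger transcription factor that glucocorticoids induce in many tissues, was the least counted of the 6, with 0 to 144 counts per library. In FS animals it was at a median of 2.20 CPM at B (0.363 to 11.4, n = 15), 3.13 CPM at FR2 (0 to 8.40, n = 18), 1.28 CPM at FR8 (0 to 5.33, n = 18) and 0.658 CPM at FR20 (0.047 to 4.63, n = 18). At most 3 counts were seen in 1, 2, 4 and 5 of these libraries, so single values at FR8 and FR20 are imprecise. ZBTB16 fell by 1.498 ± 0.49 at FR8vFR2 (adjusted p = 0.0155, down in 14 of 18). At FR2vB it was up in 12 of 15 animals, with 0.62 ± 0.53 (adjusted p = 0.356), animal 11 with its 0 at FR2 being counted as down. At FR20vB ZBTB16 was down in 12 of 15, with -1.15 ± 0.55 (adjusted p = 0.0991). When the 6 animals and 2 libraries were left out, ZBTB16 passed both thresholds in each of these comparisons, at 1.32 ± 0.44 (adjusted p = 0.0104), -1.79 ± 0.44 (adjusted p = 5.64e-04) and -1.61 ± 0.47 (adjusted p = 0.00366) for FR2vB, FR8vFR2 and FR20vB.

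In CPF animals 3, 7, 8, 13 and 18 ZBTB16 was at 2.23, 2.49, 3.84, 2.85 and 2.56 CPM at B and at 4.02, 17.03, 10.7, 6.05 and 5.76 CPM at FR2, with every FR2 value above every Baseline value. It was at 1.37, 4.00, 4.00 and 2.98 CPM at FR8 in animals 7, 8, 13 and 18, and at 0.908, 0.375, 0.255, 8.13 and 0.063 CPM at FR20. The FR2vB change was 1.64 ± 0.89 with an adjusted p of 0.291 over all genes, and the separation of the CPF values was thus not a call.

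TAT, tyrosine aminotransferase, starts the breakdown of tyrosine in hepatocytes and is a classical glucocorticoid-induced liver enzyme. In FS animals it was at a median of 3384 CPM at B (lowest 375 in animal 10, highest 7305, n = 15). It was at 780.0 CPM at FR2 (272 to 2313, n = 18), 341 CPM at FR8 (109 to 5415, n = 18) and 1051 CPM at FR20 (450.3 to 1863, n = 18). As for TSC22D3, the 3 highest FR8 values, 5415, 5408 and 2756 CPM, belonged to animals 21, 19 and 17. TAT fell by 1.74 ± 0.45 at FR2vB (adjusted p = 0.00143, down in 13 of 15), it fell by 2.39 ± 0.51 at FR8vB (adjusted p = 1.65e-04, down in 14 of 15) and it fell by 1.74 ± 0.44 at FR20vB (adjusted p = 0.00157, down in 14 of 15). FR20vFR8 gave 0.65 ± 0.46 (adjusted p = 0.437). With the 6 animals and 2 libraries left out the TAT values were -1.65 ± 0.40, -3.46 ± 0.43 and -1.66 ± 0.38, and TAT rose again from FR8 to FR20 (1.798 ± 0.41, adjusted p = 5.46e-04, up in 11 of 12).

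In CPF animals 3, 7, 8, 13 and 18 TAT was at 2838, 572, 2143, 392 and 2937 CPM at B and at 932, 493, 2532, 142 and 247 CPM at FR2. It was at 184, 719, 402 and 176 CPM at FR8 in animals 7, 8, 13 and 18 and at 971, 1646, 543, 6349 and 1092 CPM at FR20. At Baseline all 5 CPF animals were below the FS median, animals 7 and 13 being the lowest. The FR8vB change was -2.46 ± 0.94 (adjusted p = 0.0684) and, without the 6 animals and 2 libraries, -2.82 ± 0.82 (adjusted p = 0.00992).

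**Figure D3:**
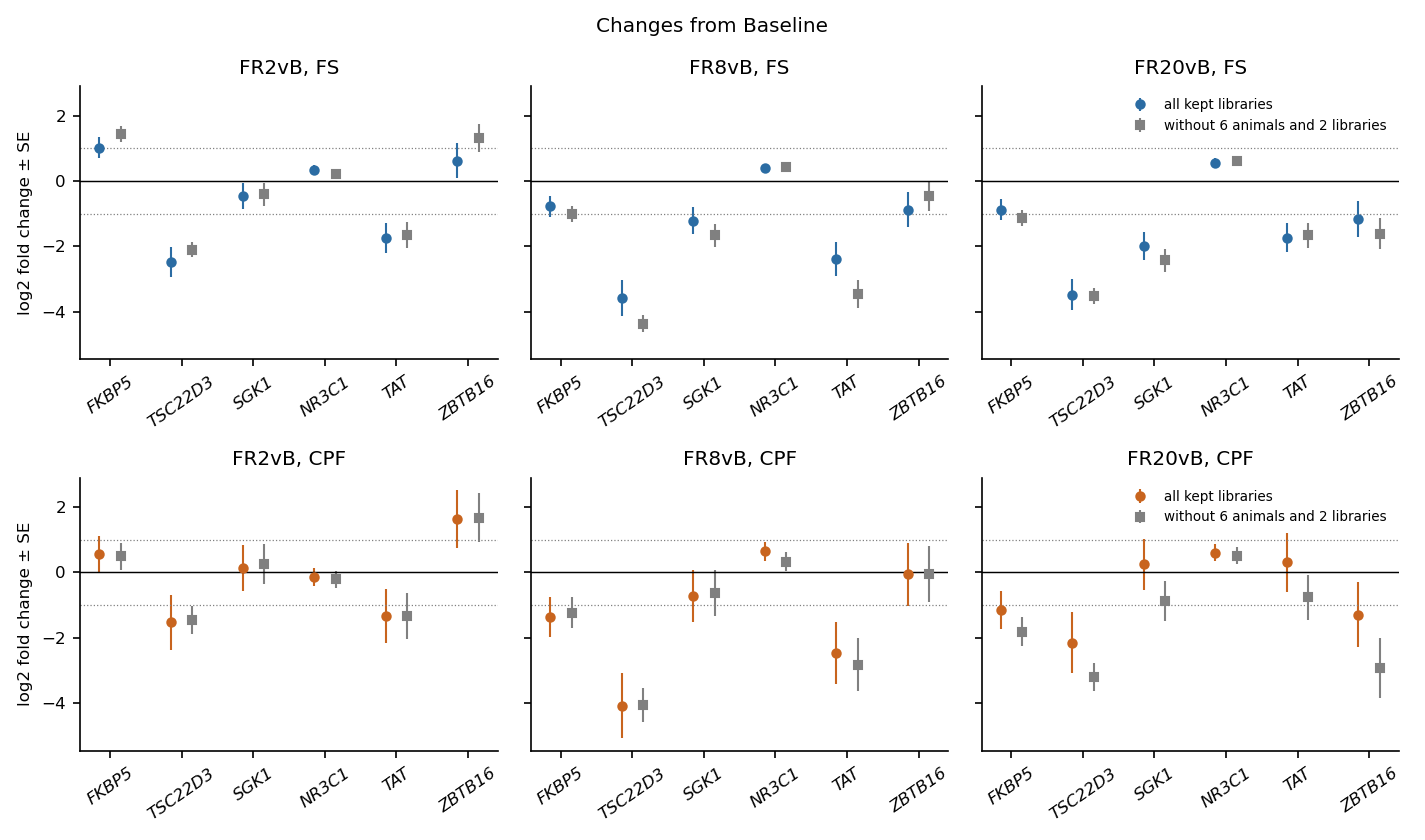
Log2 fold change from Baseline with its standard error for the 6 tested genes in FS animals (upper panels) and CPF animals (lower panels), with all kept libraries (circles) and without the 6 animals and 2 libraries (grey squares); dotted lines mark 2-fold. TSC22D3 and TAT lie below 0 in all 3 FS panels, and FKBP5 lies above 0 at FR2vB and below 0 at FR8vB and FR20vB.

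The same 88 libraries give the order of levels in FS animals by median: B, FR2, FR20, FR8 for TSC22D3, B, FR20, FR2, FR8 for TAT, FR2, B, FR8, FR20 for FKBP5 and ZBTB16, FR2, B, FR8, FR20 for SGK1, and FR20, FR8, FR2, B for NR3C1. Of the neighbours in these orders, B and FR2 differed past both thresholds for TSC22D3 and FKBP5, B and FR8 for SGK1, and B and FR20 for TAT. The other neighbours tested did not pass, which includes every neighbouring pair of NR3C1 and ZBTB16. FR20 was not tested against FR2.

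Feeding before injury was compared as the difference of the changes and at each timepoint. For CPF change minus FS change, 0 of 6 genes were called at FR2vB, FR8vB and FR20vB, where 0.0% of 13667 genes were called in each. Of the 6 genes 0, 0 and 2 had an unadjusted p under 0.05, and DESeq2 and the likelihood ratio test called 0 of them. The 2 were SGK1 and TAT at FR20vB, with differences of 2.23 ± 0.89 and 2.05 ± 1.00 (adjusted p = 1.00 for both). Without the 6 animals and 2 libraries, hence without CPF animal 13, these differences were 1.54 ± 0.71 for SGK1 and 0.90 ± 0.79 for TAT (adjusted p = 0.88 and 0.944). The errors of these differences were 0.63 to 1.13 for the 5 genes other than NR3C1, so a 2-fold difference between feeding groups was not detectable for them.

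In CPF against FS at B, 0 of 6 genes were called (0.0257% of 11688 genes), with 0 at an unadjusted p under 0.05 and 0 with DESeq2 and the likelihood ratio test. At FR2, FR8 and FR20 the quasi-likelihood test called 0 of 6 (0.0% of all genes at each), and DESeq2 and the likelihood ratio test also called 0, with 0, 0 and 3 genes at an unadjusted p under 0.05. The 3 were TSC22D3 (1.20 ± 0.50), SGK1 (1.56 ± 0.63) and TAT (0.96 ± 0.37) at FR20, all higher in CPF (adjusted p = 1.00 for each), where animal 13 held the highest CPF value of each of TSC22D3, SGK1 and TAT. After leaving out the 6 animals and 2 libraries, 0 of 6 were called at each timepoint, and the FR20 differences were 0.09 ± 0.35 for TSC22D3, 1.47 ± 0.42 for SGK1 (adjusted p = 0.630) and -0.05 ± 0.33 for TAT. TAT at B was at a median of 2143 CPM in CPF and 3384 CPM in FS animals (-0.98 ± 0.53, adjusted p = 0.685).

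Animals that died were compared with those that lived with a term for the feeding group. The quasi-likelihood test called 0 of 6 genes at B, FR2, FR8 and FR20 (0.0% of all genes at each). At B 3 of 6 had an unadjusted p under 0.05, against 0 at each later timepoint, and at B the likelihood ratio test called 1 and DESeq2 0. At Baseline FKBP5 was at 96.8, 41.3 and 30.9 CPM in the FS animals that died (2, 16 and 20) and at 45.5 and 54.7 CPM in the CPF animals that died (7 and 8). It was at 12.2 to 45.8 CPM (median 18.6, n = 12) in FS and at 26.1, 37.6 and 35.7 CPM in CPF animals that lived, so the ranges overlapped in FS and not in CPF animals. The FKBP5 difference was 1.09 ± 0.27 (adjusted p = 0.314, and 0.0304 with the likelihood ratio test). SGK1 and ZBTB16 differed at B by 1.32 ± 0.49 (adjusted p = 0.430) and 1.39 ± 0.40 (adjusted p = 0.331), and both fail the correction over 11688 genes. With the 6 animals and 2 libraries excluded, 0 of 6 were called at each timepoint, and at B the FKBP5 difference was 1.07 ± 0.28 (adjusted p = 0.441).

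Across the 86 libraries without the 2 of animal 11, FKBP5 and ZBTB16 had the highest Pearson correlation of log2 CPM among the pairs of the 6 genes, r = 0.833. It was r = 0.793 after the mean of each group and timepoint was removed, and 0.838, 0.903, 0.613 and 0.840 within FS animals at B, FR2, FR8 and FR20. TSC22D3 and TAT had r = 0.764, and 0.750 with group means removed. Within FS animals this pair was uneven, at 0.826, 0.441, 0.92 and 0.28 at B, FR2, FR8 and FR20. The FS libraries labelled FR8 but nearest to B in profile held the highest FR8 values of both genes. NR3C1 had negative values with each other gene, from -0.481 with TSC22D3 to -0.10 with ZBTB16. With group means removed it had r = -0.004 with FKBP5 and 0.074 with ZBTB16. It stayed negative with TSC22D3 (-0.417), SGK1 (-0.296) and TAT (-0.238). Within FS animals at B, FR2, FR8 and FR20 NR3C1 had r = -0.347, -0.178, -0.742 and -0.749 with TSC22D3. With FKBP5 the values were 0.60, 0.124, -0.272 and -0.408, and with ZBTB16 0.569, -0.117, 0.20 and -0.496. These are descriptions: the libraries share animals, sequencing and the course of injury, libraries unlike their label are among them, and ZBTB16 rests on few counts.

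**Figure D4:**
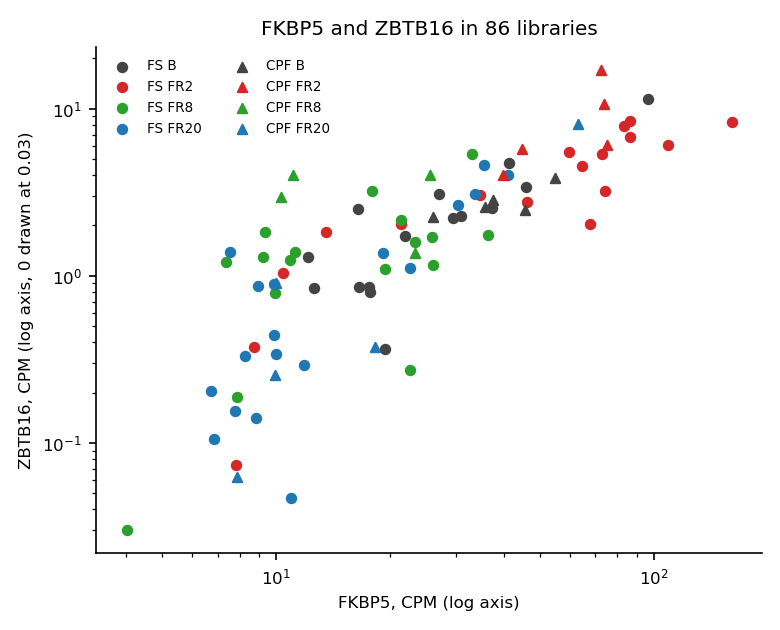
FKBP5 against ZBTB16 in CPM after TMM scaling (both axes logarithmic) in 86 libraries, colored by labelled timepoint, circles for FS and triangles for CPF animals; a ZBTB16 value of 0 is drawn at 0.03. Libraries high in one gene are high in the other (r = 0.833 on log2 CPM), and ZBTB16 scatters more where FKBP5 is low.

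Among all genes with a symbol, those most like FKBP5 over the 88 libraries were DDX21 (r = 0.859), NOLC1 (r = 0.844) and TTPAL (r = 0.841). For NR3C1 they included QKI (r = 0.873) and LSM14A (r = 0.844), and for TAT they were ULK1 (r = 0.817), CRADD (r = 0.809) and RNF13 (r = 0.807). For SGK1 they were GADD45G (r = 0.753), NOB1 (r = 0.739) and GADD45B (r = 0.733), and for ZBTB16 FKBP5 (r = 0.805), URB2 (r = 0.694) and LNX2 (r = 0.692). For TSC22D3 they were SLC37A4 (r = 0.885), RGN (r = 0.875) and RENBP (r = 0.867) over 88 libraries, and without the 2 libraries of animal 11, where TSC22D3 is at 0, TP53INP1 (r = 0.923), KLF9 (r = 0.910) and PER1 (r = 0.906), so that 0 of 3 were shared. KLF9 and PER1 are also glucocorticoid-induced and stand in the list described next.

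The other genes of the pathway were taken from 4 lists. The list of other glucocorticoid-induced genes had 32 genes, of which 17 were tested. In FS animals 2 rose and 5 fell at FR2vB, 2 rose and 11 fell at FR8vB, and 1 rose and 10 fell at FR20vB. Of all genes 11%, 11.8% and 9.94% were called in these FS changes. The list medians were -0.46, -1.31 and -1.21 on the log2 scale, beside -0.04, 0.00 and 0.04 over all genes tested. The lowest at each timepoint was LPIN1, a phosphatidate phosphatase and coactivator, which changed by -1.82 ± 0.46 at FR2vB, -3.90 ± 0.56 at FR8vB and -3.94 ± 0.50 at FR20vB (adjusted p = 0.00107, 5.87e-07 and 1.499e-08). The highest was IL1R2, the decoy receptor for interleukin 1, which rose by 2.44 ± 0.39, 1.62 ± 0.38 and 2.00 ± 0.40 (adjusted p = 1.29e-06, 5.72e-04 and 7.86e-05). In CPF animals 1 rose and 1 fell at FR2vB, 8 fell at FR8vB and 1 fell at FR20vB, and without the 6 animals and 2 libraries 2 rose and 1 fell, 11 fell and 11 fell. The share of all genes called in CPF animals was 2.41%, 8.83% and 0.702%, and 4.42%, 13% and 8.59% without them, so at FR20vB this share moved as well. The FS counts without them were 3 up and 5 down, 2 up and 12 down, and 1 up and 10 down (15.5%, 20.0% and 13.4% of all genes).

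The list of glucocorticoid-responsive liver enzymes and secreted proteins had 20 genes, of which 15 were tested. In FS animals 2 rose and 2 fell at FR2vB, 1 rose and 8 fell at FR8vB, and 1 rose and 4 fell at FR20vB, with list medians of 0.00, -1.10 and -0.81. Of all genes 11%, 11.8% and 9.94% were called in these FS changes. PFKFB1, the liver form of the enzyme that makes and breaks down fructose 2,6-bisphosphate, was the lowest at each timepoint, at -2.88 ± 0.61, -2.84 ± 0.62 and -3.55 ± 0.63 (adjusted p = 1.37e-04, 1.97e-04 and 1.15e-05). PFKFB3, the inducible form of the same enzyme, was the highest at FR2vB (2.49 ± 0.39) and FR20vB (1.48 ± 0.40), with adjusted p = 1.24e-06 and 0.00286. The fibrinogen gene FGB was the highest at FR8vB (1.10 ± 0.36, adjusted p = 0.0127). In CPF animals 0 of 15 were called at FR2vB, 4 fell at FR8vB, and 0 were called at FR20vB (2.41%, 8.83% and 0.702% of all genes were called). Leaving out the 6 animals and 2 libraries, these became 0, 1 that rose and 6 that fell, and 6 that fell (4.42%, 13% and 8.59% of all genes). The FS counts became 2 up and 1 down, 2 up and 9 down, and 1 up and 7 down (15.5%, 20.0% and 13.4% of all genes).

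The receptor complex and coregulator list had 18 genes, of which 17 were tested. In FS animals 4, 5 and 4 rose at FR2vB, FR8vB and FR20vB (11%, 11.8% and 9.94% of all genes were called) and 0 fell. The list medians were 0.46, 0.46 and 0.47. The genes that rose were chaperones and cochaperones. DNAJB1, a partner of HSP70, was the highest at FR2vB (2.34 ± 0.38, adjusted p = 1.91e-06). HSP90AA1, the stress-inducible HSP90 that holds the receptor ready, was the lowest of those called at FR2vB (1.25 ± 0.28) and the highest at FR8vB (1.54 ± 0.28, adjusted p = 1.26e-05), and at FR20vB it was again the lowest of those called (1.13 ± 0.28). PPID, an HSP90-binding immunophilin, was the lowest called at FR8vB (1.05 ± 0.17), and HSPA8 the highest at FR20vB (1.76 ± 0.43, adjusted p = 0.0011). In CPF animals 1 rose at FR2vB (DNAJB1), 6 rose and 1 fell at FR8vB, and 0 were called at FR20vB. Of all genes 2.41%, 8.83% and 0.702% were called in these CPF changes. With the 6 animals and 2 libraries left out, 4, 6 and 4 rose in FS and 4, 6 and 0 in CPF animals, and 1 fell in CPF at FR8vB. The share of all genes called was then 15.5%, 20.0% and 13.4% in FS and 4.42%, 13% and 8.59% in CPF animals.

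The steroid supply and clearance list had 10 genes, of which 4 had an identifier and 3 were tested. SERPINA6, the liver-made globulin that carries cortisol in blood, fell in FS animals by 1.26 ± 0.40 at FR2vB, 3.06 ± 0.48 at FR8vB and 2.71 ± 0.43 at FR20vB (adjusted p = 0.00824, 2.02e-06 and 1.56e-06). SRD5A1, a steroid reductase that inactivates cortisol, rose at FR2vB by 1.00 ± 0.31 (adjusted p = 0.00763). The third tested gene, AKR1D1, another steroid reductase, was not called with all kept libraries, but without the 6 animals and 2 libraries AKR1D1 fell at FR8vB in FS animals (-1.53 ± 0.22, adjusted p = 5.38e-08). In CPF animals 0 of 3 were called at FR2vB and FR20vB (2.41% and 0.702% of all genes were called), and SERPINA6 fell at FR8vB (8.83%). The 0 at FR20vB rests on libraries in doubt: without them SERPINA6 (-3.20 ± 0.47, adjusted p = 3.10e-06) and AKR1D1 (-1.20 ± 0.38, adjusted p = 0.0216) fell there, and both fell at FR8vB.

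**Figure D5:**
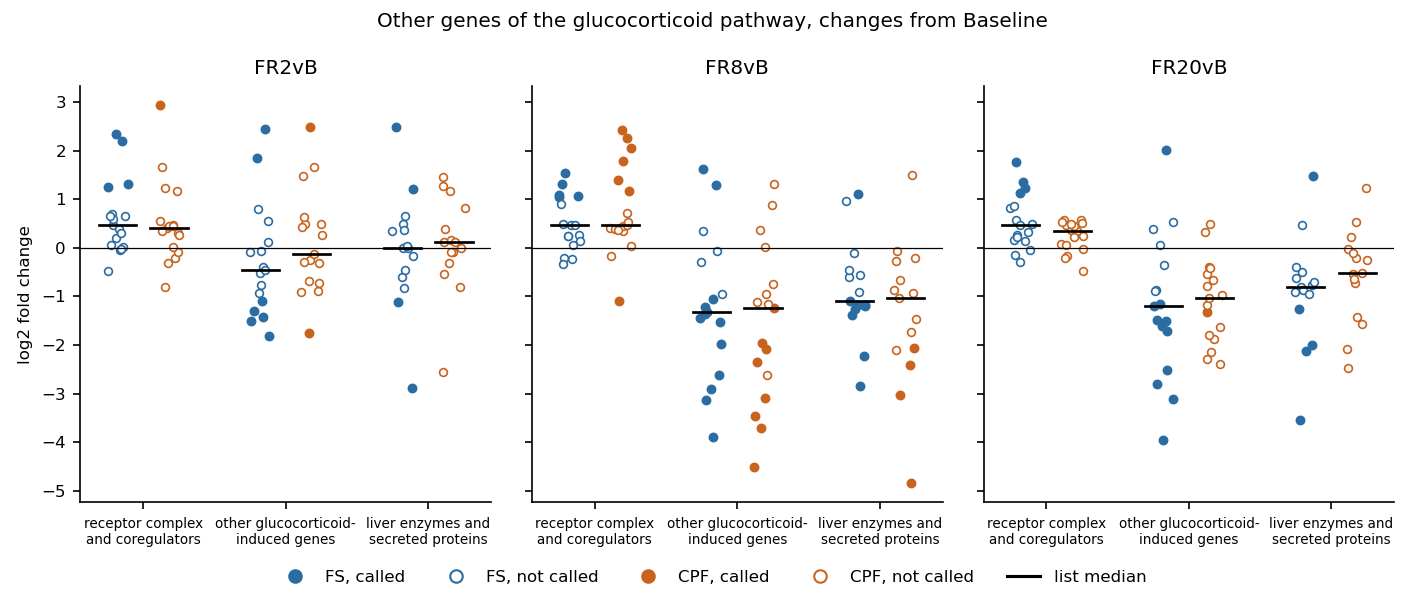
Log2 fold change from Baseline of each tested gene of 3 pathway lists in FS (blue) and CPF (orange) animals, filled where the gene was called, with the list median as a black bar. At FR8vB the medians of the induced genes and the liver enzymes are below -1 in both feeding groups, and that of the receptor complex list is 0.46 in both.

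Some cell type markers also changed between timepoints, and their part in the results was not tested. Their counts are with all kept libraries unless stated. In FS animals 11%, 11.8% and 9.94% of all genes were called at FR2vB, FR8vB and FR20vB. Lists with few called identifiers are not read as changes of those cells. Of 11 neutrophil markers 6 were tested, and 4, 3 and 3 rose in FS animals at FR2vB, FR8vB and FR20vB. Their summed level had a range of 6.26 to 24.6 CPM at B, 8.69 to 71.6 CPM at FR2, 4.40 to 40.6 CPM at FR8 and 4.59 to 61.2 CPM at FR20, and CSF3R was at 0 in every library. Of 10 monocyte and macrophage markers 5 were tested, and 0, 1 and 1 fell, with sums of 991 to 2083 CPM at B and 727 to 1251 CPM at FR20. Of 12 hepatocyte markers 11 were tested, on 12 identifiers. ALB, TF, TTR and AHSG fell at FR8vB and FR20vB. The fibrinogen genes FGA, FGB and FGG rose at FR8vB, but at FR20vB only 1 identifier, of FGA, was called higher. The summed level was 137879 to 260305 CPM at B and 47891 to 228404 CPM at FR20. Of 6 erythroid markers 3 were tested, of which 1, 2 and 2 fell. In the FS changes at FR2vB, FR8vB and FR20vB, 0, 2 and 2 of 9 tested T and NK cell identifiers fell. Of 5 B cell identifiers 1, 0 and 2 fell, and of 6 stellate and fibroblast identifiers 1, 2 and 0. Of 4 endothelial, 3 cholangiocyte and 4 striated muscle identifiers tested, 0 were called. The neutrophil markers that rose in CPF animals were 3, 1 and 0 (2.41%, 8.83% and 0.702% of all genes were called). When the 6 animals and 2 libraries were left out, 4, 3 and 3 rose (4.42%, 13% and 8.59% of all genes).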

How the data were processed

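Liver RNA-seq libraries were sequenced by the authors, who used CASAVA 1.8.2, TopHat 1.5.0 against Sscrofa10.2, SAMtools and HTSeq-count. The deposited values are raw counts per Ensembl gene in 92 libraries. The counting mode and strand setting are not given in the sources used here, so overlapping genes cannot be separated. The authors' own tests used edgeR 3.2.4. Symbols matched 12504 of 25322 identifiers, 11804 by a gene name table and 700 by the study's tables. Where a listed gene had identifiers from both sources, only those of the gene name table were used. LPIN1, PFKFB1, FGB and DNAJB1 each had another identifier that was thus left out.

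Counts were fitted with edgeR 4.0.16 (quasi-likelihood test, TMM scaling) in R 4.3.3, with genes kept at a summed CPM of 10 or more over the fitted libraries. Changes between timepoints carried a term per animal. CPFvFS was fitted per timepoint, and died against lived with a feeding term. p-values were adjusted over all tested genes (Benjamini-Hochberg), and the standard error is the absolute log2 fold change over the square root of F. Libraries of the same animal deviated together from their group means (median r = 0.205 over 126 pairs, 94 over 0.1), against -0.016 over 1791 pairs of different animals. Groups came from the labels. DESeq2 1.42.0, edgeR's likelihood ratio test, RLE scaling, other filters, no replicate block, adjusted p alone and left-out animals or libraries were alternatives, of which 3 were added after seeing the data. The scripts were tested on simulated data. Correlations used log2 CPM with a prior count of 2 and were drawn with the tables in Python 3.11.15.

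The 7 genes and the 4 pathway and 10 marker lists were chosen with earlier results of these data known. Named are all 7 genes, the highest and lowest called gene of each pathway list in each FS change from Baseline, and the 3 genes most like each of the 7. AKR1D1, the called marker genes, KLF9 and PER1, and DNAJB1 in CPF animals, were named after their values were seen. The reference annotation was of another build than the files, so no coordinates are given. Some items that these rules would name are not reported here.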

Additional observations from a re-analysis of the deposited data

Results flagged for a closer look

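Of 24 groups of 4 or 5 CPF libraries tested, 7 had 1 library farther from the others than Dixon's 95% critical value allows. Chance flags about 1 in 20 groups only where values are independent and normally distributed. The test was run on CPM without logarithms, a scale with a long upper tail, and all 7 were high. This rate therefore does not hold here. Of the 7, 4 were the library labelled FR20 of animal 13, with FKBP5 at 63.2 CPM (others 7.90 to 18.3), TSC22D3 at 307 CPM (others 19.2 to 46.6), TAT at 6349 CPM (others 543 to 1646) and ZBTB16 at 8.13 CPM (others 0.063 to 0.908). This is the library whose profile over other genes was nearest to Baseline. The rest were TSC22D3 in animal 8 at FR2, at 309.7 CPM (others 30.7 to 111), SGK1 in animal 18 at B, at 299 CPM (others 90.0 to 103), and NR3C1 in animal 8 at B, at 25.2 CPM (others 10.5 to 13.4).

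The 3 Baseline libraries without albumin, which the comparisons of the report leave out, held NR3C1 at 34.4 CPM or more of their own totals (highest 57.8), above the highest kept FS Baseline library at 31.1 CPM on the same scale.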

How the results depend on the processing

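Counts are of the 6 tested genes called. Of 347 such counts under alternatives 309 stayed within 1.5 times, and 0 values of single genes reversed a call. Counts of 0 that stayed 0 are among the 309, and most comparisons had 0 to begin with. FS counts with a CPF animal left out are also among them and could move little. The 309 are thus no measure of how firm the calls are. With the 3 Baseline libraries without albumin kept in, FR2vB and FR8vB in FS animals had 1 each and FR8vFR2 in CPF 0. By adjusted p alone FR8vB and FR20vB in FS had 5 each. With animals 17, 19 and 21 left out, FS had 5 at FR20vB, 5 at FR8vFR2 and 1 at FR20vFR8, and CPF 2 at FR8vB and 2 at FR8vFR2. Without the 6 animals unlike their label, FS had 5, 5 and 2 in these comparisons, and CPF 2 at FR8vB, 3 at FR20vB and 2 at FR8vFR2. Leaving out these and the 2 libraries with zeros gave FS 5, 5 and 1, and CPF 1 at FR2vB, 2 at FR8vB, 3 at FR20vB and 2 at FR8vFR2. Leaving out only the 2 libraries gave 2 at FR8vFR2 in CPF. DESeq2 called 2, 2 and 1 in CPF at FR8vB, FR8vFR2 and FR20vFR8. The likelihood ratio test called 2 and 2 in CPF at FR8vB and FR8vFR2, and 1 for died against lived at B. With no filter FR8vFR2 in CPF had 0. With no replicate block (no pairing by animal) FR8vFR2 in CPF had 0 and FR2vB in FS 2. Leaving out 1 of the 5 CPF animals at a time gave 0 to 1 for CPF at FR8vB, FR20vB and FR8vFR2, and 2 to 3 for FS at FR2vB. FS animals were not left out in turn for changes between timepoints. RLE scaling and edgeR's filterByExpr changed no count. The causes were not tested.

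With 5 CPF animals, and 4 at FR8, errors of CPF changes reached 1.04 on the log2 scale. ZBTB16 at FR20 rests on few counts, and HSD11B1 could not be measured.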

Other observations

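In the 3 Baseline libraries without albumin (animals 17, 19 and 21), as CPM of their own totals, TAT was at 0, 2.58 and 0, against a kept FS Baseline median of 2617. FKBP5 was at 40.4, 101 and 55.7 (kept median 18.3) and ZBTB16 at 3.50, 11.97 and 4.43 (kept median 1.94). TSC22D3 was at 49.4, 220.3 and 58.0 (kept median 238), and SGK1 at 43.5, 26.4 and 42.7 (kept median 94.6). TAT, the hepatocyte enzyme, was thus nearly absent from these libraries, while FKBP5 and ZBTB16 were above the kept medians in 3 of 3. HSD11B1 was at 0 in them as well.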
